A study of Mus musculus with 18 samples.

Results

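Skeletal muscle of mice labelled as Zfp697 knockouts was compared after 10 days of unloading with skeletal muscle of mice labelled as knockout controls. The comparison took the 3 libraries labelled Zfp697 mKO with unloading and the 3 labelled Zfp697 mKO control, of 18 libraries in all, by their labels alone. All genes with enough reads entered it, 17833 of the 32258 genes with a count and of the 54532 genes in the table. Polyadenylated RNA came from the gastrocnemius, the large calf muscle, of female C57BL/6 mice. The mKO is, by its label, a conditional knockout in skeletal muscle. The labels do not state which Cre line drives it, which part of the gene is removed, the age of the mice or the method of unloading. Both mKO groups carry the knockout label, and by their labels they differ in loading. The controls stayed in conventional cages, so an effect of housing or handling cannot be told apart from that of loading. Unloading stands for the label in what follows. Libraries of mice labelled flox, with 3 after 10 days of unloading and 3 controls, are set beside the mKO libraries where a difference between genotypes is tested. Whether the 3 libraries of a group came from separate animals is not stated, so p-values measure the spread between these samples, which may be technical.

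Unloading takes body weight off the limb muscles. Muscle fibres held without load lose contractile protein, through a lower rate of synthesis and through breakdown by the ubiquitin-proteasome and autophagy pathways, and their oxidative capacity can fall. The connective tissue around the fibres, which carries force to the tendon and is made mainly by fibroblasts and fibro-adipogenic progenitors, also depends on load. Zfp697 encodes a zinc finger protein that binds RNA.

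Total counts in the 6 mKO libraries ran from 45417041 to 51592566 per library, and no library pair looked like a duplicate. Levels are given as CPM, read counts scaled to a common library size with TMM factors, and changes as log2 fold changes of unloading over control with their standard error (SE), from an edgeR quasi-likelihood model of all 18 libraries. Calls are genes with an adjusted p under 0.05, by the method of Benjamini and Hochberg across the 17833 tested genes. Among the alternative fits given below, edgeR without a low-count filter gave some adjusted p-values far below all others. Its calls are listed and are not relied on. In a principal component analysis of the 6 libraries, the first component held 33.25% of the variance and placed the unloading libraries at 35, 17.13 and 31.78 and the control libraries at -25.23, -31.93 and -26.75. On the second component, with 20.01%, mKO unloading replicate 2 stood apart at -38.75. Counts were made without stated strand or multi-mapping options, so antisense genes and genes with near copies are uncertain. All 12 myonucleus markers were detected, and their summed level was 155700 to 180100 CPM in the unloading libraries and 158600 to 194200 CPM in the control libraries.

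Zfp697 itself (chromosome 3, 98382461 to 98753812 on GRCm38) was low in both groups, with 2.47, 1.09 and 1.41 CPM in the mKO unloading libraries, against 1.05, 1.31 and 1.25 CPM in the mKO control libraries. The group ranges overlapped, mKO unloading replicate 1 was the highest of the 6, and the change of 0.46 ± 0.26 log2 (SE, adjusted p = 0.304) did not pass. In flox muscle it had 1.58, 1.74 and 1.61 CPM in the flox unloading libraries, against 1.001, 0.984 and 1.598 CPM in the flox control libraries. The libraries labelled mKO were thus not lower than those labelled flox: the mean was 1.66 ± 0.72 CPM in mKO and 1.65 ± 0.0809 CPM in flox unloading libraries, and 1.202 ± 0.134 CPM in mKO and 1.19 ± 0.35 CPM in flox control libraries (SD, n = 3 each). Reads were summed over all exons, the removed part of the gene is not stated, and cells other than muscle fibres can express the gene. The level of Zfp697 therefore does not show the loss that the mKO label names, and mKO and flox stand for the labels in all that follows.

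Unloading changed 1382 genes in muscle labelled mKO, 7.75% of those tested. The 729 that rose were 4.09% of the tested genes and had a median change of 0.399 log2. The 653 that fell were 3.66% and had a median size of 0.608 log2. Rises were 52.75% of the calls, against 46.02% with total-count scaling, so which direction held more calls turned with the scaling. By more than 2-fold, 153 genes fell and 72 rose. The CPM ranges of the groups did not overlap in 720 of the genes that rose and in 643 of the genes that fell, against 27.6% of all tested genes. Most calls thus had separate ranges, and the genes named for the largest changes or smallest p were taken only from those. A separation stated for a called gene below describes its values and adds no support to its call. The median change over all tested genes was -0.0063 log2. Collagen and other matrix genes were among the falls, and genes of glucocorticoid response and autophagy among the rises. The number of calls was 508 without mKO unloading replicate 1, 596 without mKO unloading replicate 3, and 822, 731 and 722 without mKO control replicates 1, 2 and 3. In all 6 such fits 197 rises and 173 falls were called, and none of the 1382 calls turned its sign.

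**Figure D1:**
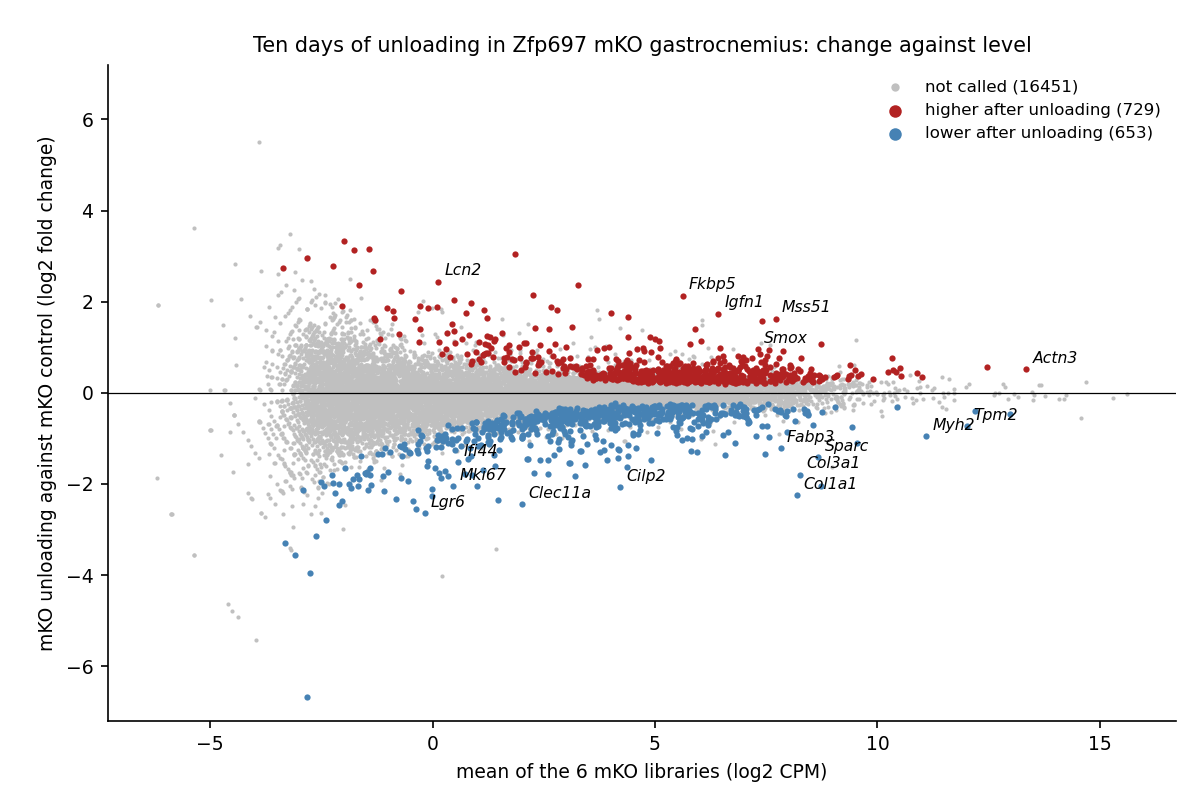
Change of each tested gene (log2 fold change, mKO unloading over mKO control, vertical axis) against its mean level in the 6 mKO libraries (log2 CPM, horizontal axis). Red points are the 729 genes that rose and blue points the 653 that fell, and Col1a1, Col3a1 and Sparc are named among the abundant genes that fell by more than 2-fold.

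Fibrillar collagens form the tension-bearing fibres of connective tissue. Of 11 tested fibrillar collagen genes 8 fell and 0 rose, with a list median of -1.23 log2, and all 11 had a change below 0. The 8 calls were all made in each of the 6 fits that left out 1 library. Col1a1, the main chain of type I collagen (chromosome 11, 94936224 to 94953042), had 53.1, 139 and 114 CPM in the mKO unloading libraries, against 387, 502 and 560.1 CPM in the mKO control libraries. Every unloading library lay below every control library, with mKO unloading replicate 1 the lowest, and Col1a1 fell by 2.24 ± 0.31 on the log2 scale (SE, adjusted p = 0.000424). Its partner chain Col1a2 had 104, 211 and 184 CPM in the mKO unloading libraries, against 589.8, 669.8 and 802 CPM in the mKO control libraries, a change of -2.05 ± 0.24 log2 (SE, adjusted p = 0.000162). Col3a1, the type III collagen of reticular fibres, had 86.5, 196 and 128 CPM in the mKO unloading libraries, against 392, 544 and 487 CPM in the mKO control libraries, a change of -1.79 ± 0.26 log2 (SE, adjusted p = 0.0006). In each of these genes the same unloading library was lowest and the groups were clear of each other. The chains of collagens V and XI, which set the thickness of type I and II fibres, also fell: Col11a1 by 1.57, Col11a2 by 1.23, Col5a1 by 1.02 and Col5a2 by 0.98 on the log2 scale. Col2a1, the cartilage collagen, was low, with 0.306, 0.341 and 0.449 CPM in the mKO unloading libraries, against 1.54, 1.49 and 1.74 CPM in the mKO control libraries, and its change was -2.11 ± 0.27 log2 (SE, adjusted p = 0.000248). The 3 members not called were Col5a3 at -0.78, Col24a1 at -0.71 and Col27a1 at -0.09 log2. Col5a3 was called without a low-count filter and in a fit of the mKO groups alone (adjusted p from 7.94e-13 to 0.117 over the 7 alternatives that kept all libraries) and Col24a1 was called without a low-count filter and in a fit of the mKO groups alone (adjusted p from 1.13e-05 to 0.153 over the 7 alternatives that kept all libraries).

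Among 26 other collagen genes 13 fell and 0 rose, with a median of -0.63 log2. Type VI collagen forms beaded filaments next to the muscle fibre. Its chain Col6a2 had 39.9, 64.9 and 55.1 CPM in the mKO unloading libraries, against 106, 163 and 141 CPM in the mKO control libraries, with no overlap and a change of -1.36 ± 0.18 log2 (SE, adjusted p = 0.000343). Col6a1 changed by -1.10 ± 0.14 log2 (SE, adjusted p = 0.000192) and Col6a3 by -0.93 ± 0.14 log2 (SE, adjusted p = 0.00078). Col15a1, a collagen of the basement membrane zone, had 25.4, 47.6 and 33.6 CPM in the mKO unloading libraries, against 73.8, 94.3 and 93.1 CPM in the mKO control libraries. All of its unloading values were below its lowest control value, and the change was -1.29 ± 0.19 log2 (SE, adjusted p = 0.000833). The basement membrane collagen Col4a1 changed by -0.97 ± 0.19 log2 (SE, adjusted p = 0.00531), and Col12a1, a collagen that coats type I fibres, by -0.93 ± 0.23 log2 (SE, adjusted p = 0.0179). Of these, Col4a1 was called in each of the 6 fits without a library and Col12a1 was not (adjusted p up to 0.0908, for Col12a1 without mKO unloading replicate 1). The number of falls was 8 without mKO unloading replicate 1 or 3 or mKO control replicate 2 or 3.

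Enzymes and chaperones that process collagen followed a similar direction, with 11 of 28 lower and 1 higher and a median of -0.37 log2. Serpinh1, the collagen-specific chaperone of the endoplasmic reticulum, had 46.4, 49.6 and 41.3 CPM in the mKO unloading libraries, against 78.6, 92.3 and 92.4 CPM in the mKO control libraries. The groups did not overlap and it fell by 0.94 ± 0.15 on the log2 scale (SE, adjusted p = 0.00119). Fkbp10, a collagen prolyl isomerase, changed by -0.91 ± 0.12 log2 (SE, adjusted p = 0.000276), and Adamts2, which removes the N-terminal propeptide, by -0.88 ± 0.11 log2 (SE, adjusted p = 0.000192). Pcolce, which speeds removal of the C-terminal propeptide, changed by -0.84 ± 0.15 log2 (SE, adjusted p = 0.00264), and Loxl2, a cross-linking lysyl oxidase, by -1.15 ± 0.21 log2 (SE, adjusted p = 0.00299). Adamts14, a relative of Adamts2 with the same activity, changed by -0.999 ± 0.22 log2 (SE, adjusted p = 0.00961). Of these, Loxl2 was called in each of the 6 fits without a library and Adamts14 was not (adjusted p up to 0.0619, for Adamts14 without mKO unloading replicate 1). The gene that rose was Tmem38b, a cation channel of the endoplasmic reticulum in which human mutations impair collagen synthesis. It had 111, 117 and 122 CPM in the mKO unloading libraries, against 71.3, 67.4 and 77.2 CPM in the mKO control libraries, clear of each other, and a change of 0.70 ± 0.08 log2 (SE, adjusted p = 0.000162). The number of falls was 7 without mKO unloading replicate 1.

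Of 40 matrix glycoprotein and proteoglycan genes 16 fell and 1 rose, with a median of -0.43 log2. Sparc, a secreted protein that binds collagen (chromosome 11, 55394500 to 55423183), had 183, 255 and 231 CPM in the mKO unloading libraries, against 569, 592 and 613 CPM in the mKO control libraries. The 3 control values were close together and every unloading value lay far below them, and with a change of -1.41 ± 0.14 log2 (SE, adjusted p = 5.96e-05) it had the smallest adjusted p of the comparison. Clec11a, a secreted C-type lectin that supports bone formation in mice, had 0.786, 1.66 and 1.304 CPM in the mKO unloading libraries, against 6.996, 5.95 and 7.41 CPM in the mKO control libraries, with no overlap and a change of -2.44 ± 0.28 log2 (SE, adjusted p = 0.000162). Ccn4, a Wnt-induced matricellular protein, changed by -1.17 ± 0.31 log2 (SE, adjusted p = 0.0279). Of these, Clec11a was called in each of the 6 fits without a library and Ccn4 was not (adjusted p up to 0.124, for Ccn4 without mKO unloading replicate 1). Mfap4, a microfibril protein, changed by -1.28 ± 0.20 log2 (SE, adjusted p = 0.00134) and Fn1, fibronectin, by -0.94 ± 0.21 log2 (SE, adjusted p = 0.0123), not called without mKO unloading replicate 1 or mKO control replicate 2 or 3 (adjusted p up to 0.0777, without mKO unloading replicate 1). Postn, a matricellular protein, had 10.2, 19.3 and 13.7 CPM in the mKO unloading libraries, against 30.3, 41.9 and 26.8 CPM in the mKO control libraries. The groups were apart and the change was -1.20 ± 0.30 log2 (SE, adjusted p = 0.0221), not called without mKO unloading replicate 1 or 3 or mKO control replicate 2 (adjusted p up to 0.117, without mKO unloading replicate 1). The member that rose was Ccn1, an immediate early matricellular gene, at 0.99 ± 0.26 log2 (SE, adjusted p = 0.0259), not called without mKO unloading replicate 1 or 3 or mKO control replicate 1 or 3 (adjusted p up to 0.137, without mKO unloading replicate 1). The number of members that fell was 5 without mKO unloading replicate 1, 7 without mKO unloading replicate 3 or mKO control replicate 2 and 8 without mKO control replicate 3.

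In the basement membrane list 4 of 15 fell and 1 rose, with a median of -0.30 log2. The nidogens, which link laminin to type IV collagen, fell with Nid2 at -0.53 and Nid1 at -0.50 log2, as did the laminin chain Lamb1 at -0.53 and perlecan, Hspg2, at -0.38 log2. Lama5, another laminin chain, rose by 0.41 log2. Falls in this list numbered 2 without mKO unloading replicate 1 or 3 or mKO control replicate 2 or 3 and 7 without mKO control replicate 1. Nid1 was not called without mKO unloading replicate 1 or 3 or mKO control replicate 2 or 3 (adjusted p up to 0.185, without mKO control replicate 3). Hspg2 was called in 1 of the 6 fits that left out a library, the fit without mKO control replicate 1 (adjusted p up to 0.183, without mKO unloading replicate 1), and Lama5 was not called without mKO unloading replicate 1 or 3 or mKO control replicate 1 or 2 (adjusted p up to 0.13, without mKO unloading replicate 3). Of 31 matrix protease and inhibitor genes 6 fell and 0 rose, which is 19.35% called, against 7.75% of all tested genes. Ctsk, a collagen-degrading cathepsin, had 6.62, 4.78 and 5.75 CPM in the mKO unloading libraries, against 10.8, 12.1 and 12.2 CPM in the mKO control libraries, without overlap, and a change of -1.04 ± 0.16 log2 (SE, adjusted p = 0.00119). Metalloproteases also fell, with Mmp23 at -1.06, Mmp15 at -0.52, Adamts12 at -0.69 and Adamts9 at -0.59 log2. None of these was called in all 6 fits without a library (adjusted p up to 0.113, for Adamts12 without mKO unloading replicate 1). Mmp2, a gelatinase, changed by -0.48 ± 0.11 log2 (SE, adjusted p = 0.0144), not called without mKO control replicate 2 or 3 (adjusted p up to 0.0679, without mKO control replicate 3). The number of falls in the protease list was 2 without mKO unloading replicate 1 or 3 or mKO control replicate 3 and 3 without mKO control replicate 2.

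**Figure D2:**
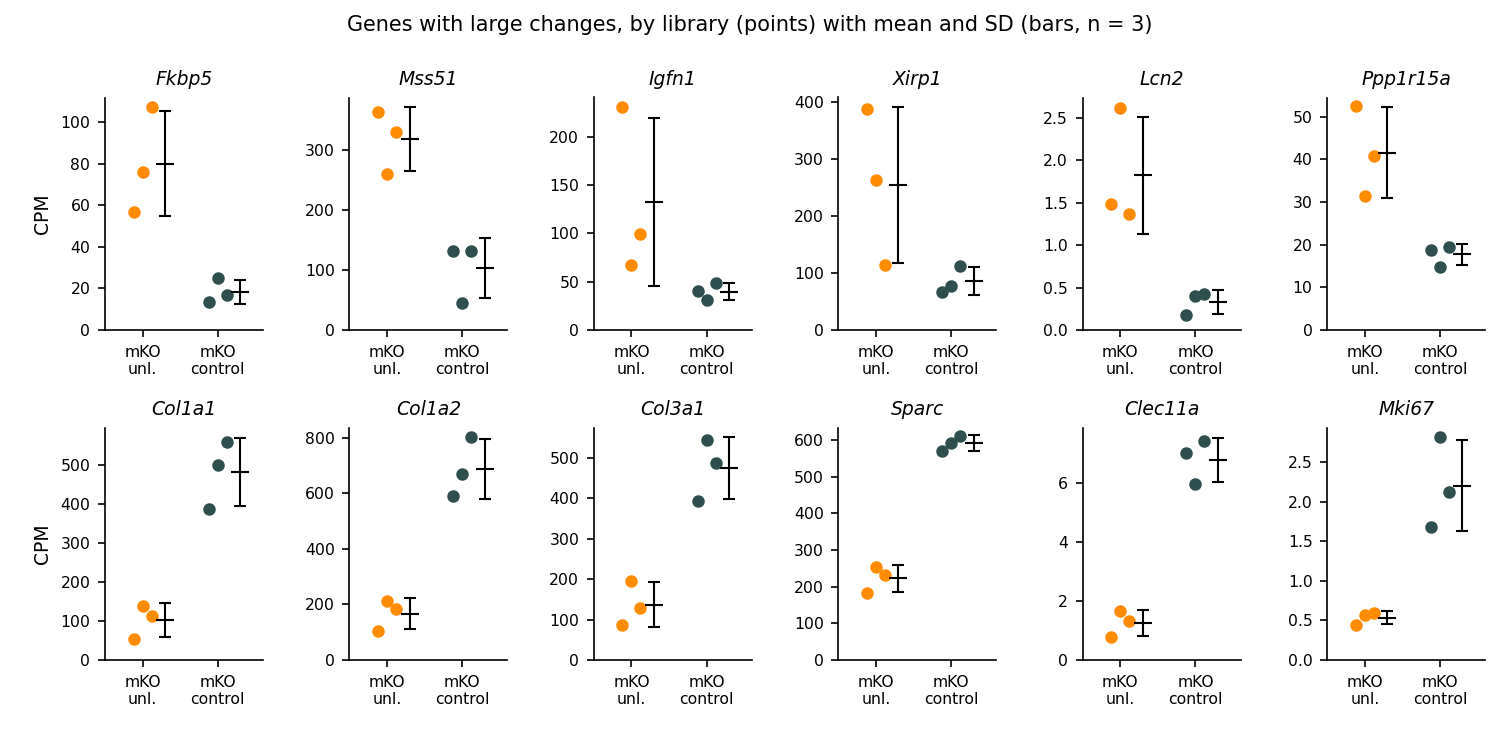
CPM (vertical axes, linear from 0) of 12 genes with large changes in each mKO unloading library (orange, left) and each mKO control library (dark, right), with mean and SD (n = 3) beside the points. Fkbp5, Mss51, Igfn1, Xirp1, Lcn2 and Ppp1r15a were higher and Col1a1, Col1a2, Col3a1, Sparc, Clec11a and Mki67 were lower in the unloading libraries, without overlap between the groups.

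Tendon cell markers were lower together with these genes, and so was a smaller share of fibro-adipogenic progenitor markers. The shares that fell were 63.6% and 23.1%, against 3.66% of all tested genes. Of 11 tendon cell markers 7 fell and 0 rose, with a median of -0.87 log2 and a summed level of 354 to 487 CPM in the unloading libraries and 672 to 927 CPM in the control libraries. Fmod, Thbs4 and Comp are also on the matrix list. Tnmd, tenomodulin, a membrane protein of tendon cells, had 7.45, 8.33 and 7.95 CPM in the mKO unloading libraries, against 20, 16.1 and 22.1 CPM in the mKO control libraries, with the groups clear of each other and a change of -1.29 ± 0.20 log2 (SE, adjusted p = 0.000977). Kera, the proteoglycan keratocan, changed by -1.63 ± 0.29 log2 (SE, adjusted p = 0.00269), and Cilp2, a matrix protein of cartilage and tendon, by -2.07 ± 0.39 log2 (SE, adjusted p = 0.00423). Chad, chondroadherin, stood at -1.47, Comp at -1.14, Fmod at -0.86 and Thbs4 at -0.73 log2. None of these was called in all 6 fits without a library (adjusted p up to 0.163, for Fmod without mKO unloading replicate 1). The tendon transcription factors Scx at -0.52 and Mkx at -0.57 log2 were not called. The number of tendon markers that fell was 3 without mKO unloading replicate 1 or mKO control replicate 3 and 4 without mKO unloading replicate 3. Of 13 fibro-adipogenic progenitor markers 3 fell and 0 rose, with a median of -0.34 log2 and summed levels of 2297 to 2552 CPM and 2233 to 2930 CPM in unloading and control libraries, which overlapped. Their defining receptor Pdgfra stood at 0.05 log2 and the proteoglycan Dcn at -0.02 log2, while Cd34 changed by -0.45 ± 0.07 log2 (SE, adjusted p = 0.00179), Cd248, endosialin, by -0.75 ± 0.17 log2 (SE, adjusted p = 0.014) and Lum by -0.76 ± 0.14 log2 (SE, adjusted p = 0.00394). Of these, Cd34 and Lum were called in each of the 6 fits without a library and Cd248 was not (adjusted p up to 0.085, for Cd248 without mKO unloading replicate 1). No defining marker of either list was at 0 in the 6 libraries. In whole muscle, fewer cells of a type and less RNA per cell cannot be told apart, and the part of tendon tissue in the fall of the collagen genes was not tested.

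Among other cell types 5.56% of macrophage, 7.69% of endothelial, 16.7% of satellite cell and 20% of neutrophil markers were called. The share over all tested genes was 7.75%. Of 18 macrophage and monocyte markers 1 fell, the complement gene C1qa at -0.62 log2, called in 1 of the 6 fits that left out a library, the fit without mKO control replicate 1 (adjusted p up to 0.202, without mKO unloading replicate 3). Their summed level was 131 to 181 CPM in the unloading libraries and 148 to 224 CPM in the control libraries. Of 13 endothelial markers 1 fell, Emcn, endomucin, at -0.49 ± 0.10 log2 (SE, adjusted p = 0.00689), and the count was 2 without mKO control replicate 1. Of 12 satellite cell markers 2 fell, Vcam1, an adhesion molecule, at -0.70 ± 0.15 log2 (SE, adjusted p = 0.00921) and the Notch target Heyl at -0.34 log2, called in 1 of the 6 fits that left out a library, the fit without mKO unloading replicate 2 (adjusted p up to 0.129, without mKO unloading replicate 1). Pax7, which defines satellite cells, stood at -0.03 log2. The neutrophil list had 5 tested members at low levels, of which Csf3r, the G-CSF receptor, rose with 0.48, 1.34 and 0.662 CPM in the mKO unloading libraries, against 0.129, 0.282 and 0.296 CPM in the mKO control libraries. Csf3r changed by 1.80 ± 0.49 log2 (SE, adjusted p = 0.0312) and was called in 1 of the 6 fits that left out a library, the fit without mKO unloading replicate 1 (adjusted p up to 0.131, without mKO unloading replicate 2). Among the pericyte, T and natural killer, B, mast, Schwann cell, adipocyte and red blood cell markers edgeR called 0. Of 7 mast cell markers 2 had an unadjusted p under 0.05, and DESeq2 called 1 and edgeR without a low-count filter 2, and of 6 red blood cell markers 2 had an unadjusted p under 0.05, and DESeq2 called 1 and edgeR without a low-count filter 6. In the other lists DESeq2 called 0, and edgeR without a low-count filter called 3 adipocyte markers and 1 B cell marker. Unadjusted p-values under 0.05 numbered 2 among pericyte markers and 0 in the T and natural killer, B, Schwann and adipocyte lists. The mast cell protease gene Mcpt4, at -0.61 log2, was called with DESeq2 and without a low-count filter (adjusted p from 0.0147 to 0.106 over the 7 alternatives that kept all libraries). The summed level of B cell markers was 13.8 to 35.2 CPM in the unloading libraries and 39.98 to 49.3 CPM in the control libraries, without overlap. For red blood cell markers the sums were 55.8 to 81.0 CPM and 82.4 to 107 CPM in unloading and control libraries. Ranges of single genes did not overlap in 27.6% of all tested genes, so these sums do not show a change of either cell type.

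**Figure D3:**
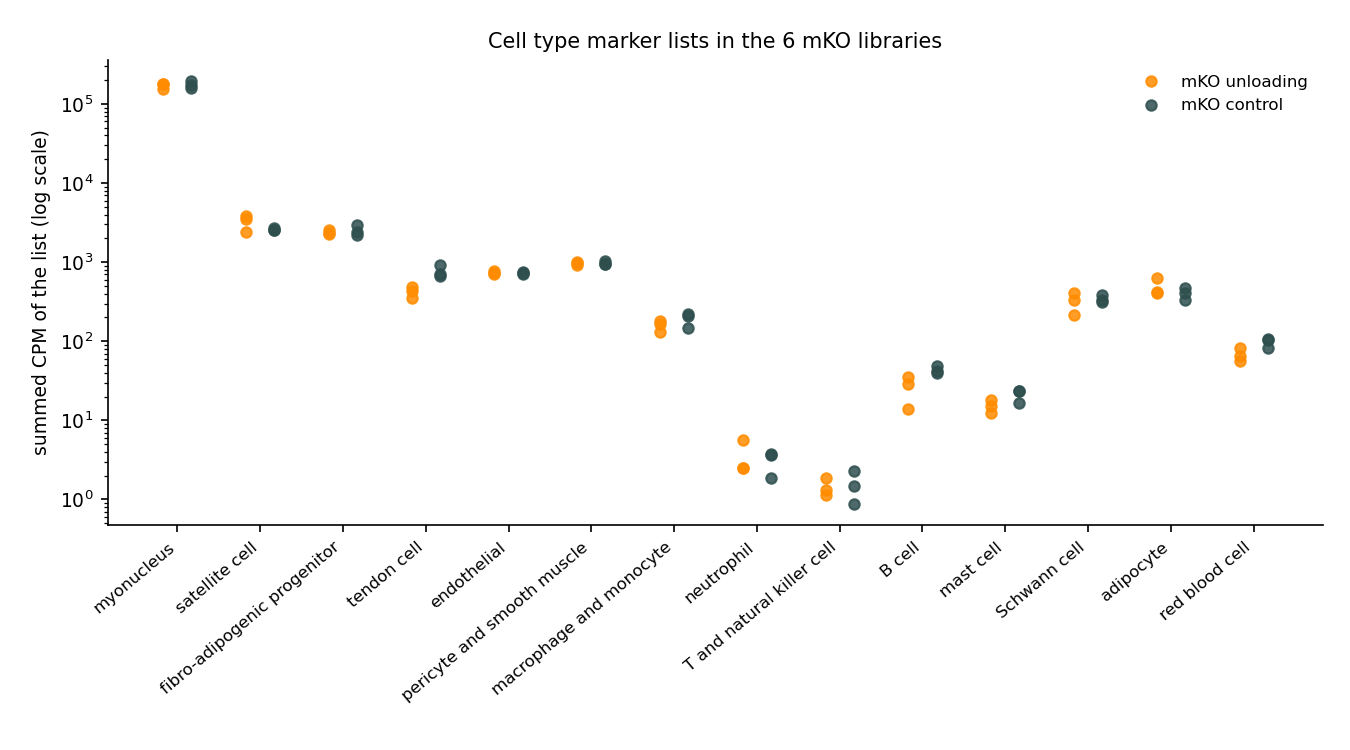
Summed CPM of each cell type marker list (log axis) in the 3 mKO unloading libraries (orange, left of each pair) and the 3 mKO control libraries (dark, right). The tendon, B cell and red blood cell sums did not overlap between the groups, and the myonucleus, endothelial and pericyte sums did. Ranges of single genes did not overlap in 27.6% of all tested genes, and edgeR called 0 B cell and 0 red blood cell markers.

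Genes of oxidative metabolism were lower by small amounts. Of 79 nuclear genes of the respiratory complexes I to V 9 fell and 0 rose, the median was -0.19 log2 and 77 of 79 changes were below 0. The share called was 11.4%, against 7.75% of all tested genes. Ndufc1, a complex I subunit, had 82.8, 95.7 and 87.7 CPM in the mKO unloading libraries, against 120.0, 123 and 116 CPM in the mKO control libraries, without overlap, and a change of -0.43 ± 0.09 log2 (SE, adjusted p = 0.0064). Sdhb, the iron-sulphur subunit of complex II, had 269, 291 and 278 CPM in the mKO unloading libraries, against 402, 353 and 384 CPM in the mKO control libraries, also without overlap. The changes were -0.44 ± 0.09 log2 (SE, adjusted p = 0.0092) for Sdhb, -0.43 ± 0.09 log2 (SE, adjusted p = 0.00732) for Atp5g3, a ring subunit of ATP synthase, and -0.41 ± 0.10 log2 (SE, adjusted p = 0.0179) for cytochrome c1, Cyc1. The Rieske protein Uqcrfs1 of complex III stood at -0.48 and the complex I subunit Ndufb5 at -0.37 log2. Of these, Ndufc1 was called in each of the 6 fits without a library and Uqcrfs1 and Ndufb5 were not (adjusted p up to 0.118, for Uqcrfs1 without mKO unloading replicate 1). The number of falls was 1 without mKO unloading replicate 1, 3 without mKO control replicate 1 and 5 without mKO unloading replicate 3 or mKO control replicate 3. Sdhb and Atp5g3 were each not called without mKO unloading replicate 1 (adjusted p = 0.0509), and Cyc1 was not called without mKO unloading replicate 1 or mKO control replicate 1 or 3 (adjusted p up to 0.0958, without mKO unloading replicate 1). Of the 13 mitochondrially encoded genes edgeR called 0, 1 had an unadjusted p under 0.05, and DESeq2 called 0 and edgeR without a low-count filter 3, with mt-Co1 at -0.10 and mt-Cytb at -0.13 log2 the most abundant, and their median was -0.13 log2.

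Of 44 genes of the TCA cycle and fatty acid oxidation 8 fell and 0 rose, with a median of -0.27 log2. The β-oxidation enzyme Acads, which starts on short acyl chains, had 47.7, 56.1 and 53.8 CPM in the mKO unloading libraries, against 85.02, 82.8 and 79.9 CPM in the mKO control libraries, clear of each other, and a change of -0.65 ± 0.11 log2 (SE, adjusted p = 0.00193). Hadh, the third enzyme of the spiral, changed by -0.49 ± 0.10 log2 (SE, adjusted p = 0.0083), and Oxct1, which lets muscle burn ketone bodies, by -0.70 ± 0.18 log2 (SE, adjusted p = 0.0269), not called without mKO unloading replicate 1 or 3 or mKO control replicate 1 or 3 (adjusted p up to 0.133, without mKO unloading replicate 1). The remaining β-oxidation genes named were Decr1 at -0.54, Cpt2 at -0.52 and Hadhb at -0.51 log2. Of these, Acads and Hadh were called in each of the 6 fits without a library and Decr1, Cpt2 and Hadhb were not (adjusted p up to 0.147, for Cpt2 without mKO unloading replicate 1). The number of falls in this list was 2 without mKO unloading replicate 1 or 3, 4 without mKO control replicate 3, 5 without mKO control replicate 2 and 15 without mKO unloading replicate 2. Fabp3, the fatty acid carrier of oxidative fibres, had 125, 168 and 115 CPM in the mKO unloading libraries, against 282, 355 and 314 CPM in the mKO control libraries. Its highest unloading value was well under its lowest control value, and the change was -1.22 ± 0.22 log2 (SE, adjusted p = 0.00351). Tfb1m, a mitochondrial ribosomal RNA methyltransferase, changed by -0.63 ± 0.12 log2 (SE, adjusted p = 0.00359), and the coactivator Ppargc1b by -0.51 ± 0.12 log2 (SE, adjusted p = 0.0154), not called without mKO unloading replicate 3 or mKO control replicate 2 (adjusted p up to 0.0594, without mKO control replicate 2). Mtfp1, a protein of mitochondrial fission, stood at -0.34 log2, not called without any 1 of the 6 libraries (adjusted p up to 0.173, without mKO unloading replicate 1).

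Of 36 glucose and glycogen genes 4 rose and 0 fell, with a median of 0.10 log2. The share called was 11.1%, against 7.75% of all tested genes. Slc2a3, the glucose transporter GLUT3, had 6.55, 7.99 and 6.97 CPM in the mKO unloading libraries, against 2.79, 3.08 and 2.14 CPM in the mKO control libraries. The groups were separate and the change was 1.42 ± 0.17 log2 (SE, adjusted p = 0.000162). Phka1, a subunit of phosphorylase kinase, changed by 0.46 ± 0.12 log2 (SE, adjusted p = 0.0238) and Gbe1, the glycogen branching enzyme, by 0.50 ± 0.13 log2 (SE, adjusted p = 0.026). Phka1 was not called without mKO unloading replicate 2 or 3 or mKO control replicate 1 or 2 (adjusted p up to 0.0893, without mKO control replicate 2), and Gbe1 was not called without mKO unloading replicate 2 or mKO control replicate 1 or 2 (adjusted p up to 0.12, without mKO control replicate 2). The number of rises was 2 without mKO unloading replicate 2 or mKO control replicate 1 or 2.

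Protein breakdown genes gave a mixed picture. Of 31 autophagy and mitophagy genes 9 rose and 0 fell, with a median of 0.16 log2. Map1lc3a, an LC3 protein of the autophagosome membrane, had 171, 146 and 173 CPM in the mKO unloading libraries, against 106, 99.05 and 92.6 CPM in the mKO control libraries. No unloading library reached down to the controls, and the change was 0.72 ± 0.09 log2 (SE, adjusted p = 0.000249). Optn, an autophagy receptor, had 89.2, 80.3 and 87.4 CPM in the mKO unloading libraries, against 54.1, 52.9 and 62.2 CPM in the mKO control libraries, with the same separation and a change of 0.60 ± 0.11 log2 (SE, adjusted p = 0.0039). Depp1, a FoxO target gene, changed by 1.40 ± 0.34 log2 (SE, adjusted p = 0.0174), the mitophagy receptor Bnip3 by 0.36 ± 0.09 log2 (SE, adjusted p = 0.0249) and the initiating kinase Ulk1 by 0.34 ± 0.10 log2 (SE, adjusted p = 0.0458). Atg9a, a lipid scramblase of the growing membrane, changed by 0.35 ± 0.09 log2 (SE, adjusted p = 0.0252). Of these, Map1lc3a and Optn were called in each of the 6 fits without a library and Atg9a was not (adjusted p up to 0.118, for Atg9a without mKO unloading replicate 3). Depp1 was not called without mKO unloading replicate 2 or mKO control replicate 1 or 3 (adjusted p up to 0.0757, without mKO control replicate 3). Bnip3 was not called without mKO unloading replicate 1 or 3 or mKO control replicate 2 or 3 (adjusted p up to 0.114, without mKO unloading replicate 1), and Ulk1 was not called without any 1 of the 6 libraries (adjusted p up to 0.173, without mKO unloading replicate 3). The number of rises was 3 without mKO unloading replicate 3 or mKO control replicate 3, 4 without mKO control replicate 1 and 5 without mKO unloading replicate 1 or mKO control replicate 2.

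Of 24 muscle ubiquitin ligase genes 3 rose and 0 fell, which is 12.5% called, against 7.75% of all tested genes. Trim63, the atrophy ligase MuRF1, had 308, 286 and 275 CPM in the mKO unloading libraries, against 229, 221 and 219 CPM in the mKO control libraries. The groups did not overlap, the change of 0.37 ± 0.08 log2 (SE, adjusted p = 0.00938) was small, and it was not called without mKO unloading replicate 1 (adjusted p = 0.0573). Asb5, a muscle adaptor of cullin ligases, had 282, 263 and 226 CPM in the mKO unloading libraries, against 171, 163 and 164 CPM in the mKO control libraries, a change of 0.63 ± 0.12 log2 (SE, adjusted p = 0.00385). The ligase scaffold Cul3 changed by 0.36 ± 0.08 log2 (SE, adjusted p = 0.00791). Fbxo32, the other well known atrophy ligase, stood at 0.05 ± 0.23 log2 and was not called (adjusted p = 0.926). Without mKO unloading replicate 2 the ligase list had 5 rises and 1 fall. Of 32 proteasome subunit genes edgeR called 0, 5 had an unadjusted p under 0.05, and DESeq2 called 0 and edgeR without a low-count filter 1, with a median of 0.03 log2 and a range of -0.21 to 0.34 log2.

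Glucocorticoids act through a nuclear receptor and can drive muscle protein loss. Of 22 glucocorticoid-responsive genes 6 rose and 0 fell, 20 had a change above 0, and the median was 0.49 log2. Fkbp5, a co-chaperone of the glucocorticoid receptor (chromosome 17, 28399094 to 28517527), had 56.9, 76.01 and 107 CPM in the mKO unloading libraries, against 13.3, 24.8 and 16.6 CPM in the mKO control libraries. Even the lowest unloading value was above the highest control value, and the change was 2.13 ± 0.29 log2 (SE, adjusted p = 0.000343), or 4.38-fold. Lcn2, the secreted lipocalin 2, was low but separated, with 1.49, 2.62 and 1.37 CPM in the mKO unloading libraries, against 0.172, 0.402 and 0.423 CPM in the mKO control libraries and a change of 2.44 ± 0.45 log2 (SE, adjusted p = 0.00368). Sgk1, the serum and glucocorticoid regulated kinase, had 206, 272 and 264 CPM in the mKO unloading libraries, against 150.2, 163 and 74.7 CPM in the mKO control libraries, with mKO control replicate 3 the lowest. It changed by 0.94 ± 0.21 log2 (SE, adjusted p = 0.0133) and was not called without mKO unloading replicate 3 (adjusted p = 0.0522). The transcription factor Klf9 changed by 0.42 ± 0.09 log2 (SE, adjusted p = 0.00862), also not called without mKO unloading replicate 3 (adjusted p = 0.0512). Errfi1, an inhibitor of the EGF receptor, changed by 0.51 ± 0.13 log2 (SE, adjusted p = 0.0253), not called without mKO unloading replicate 1 or 2 or mKO control replicate 1 or 3 (adjusted p up to 0.114, without mKO control replicate 3). Cebpd, Ddit4 and Mt2 had larger values of 1.82, 1.43 and 1.41 log2 but were not called by edgeR (adjusted p = 0.0546, 0.0602 and 0.0621). Cebpd was called with DESeq2, without a low-count filter and in a fit of the mKO groups alone (adjusted p from 5.78e-39 to 0.0633 over the 7 alternatives that kept all libraries), Ddit4 was called without a low-count filter and in a fit of the mKO groups alone (adjusted p from 4.19e-30 to 0.0712 over the 7 alternatives that kept all libraries) and Mt2 was called with DESeq2 and without a low-count filter (adjusted p from 0.0129 to 0.0763 over the 7 alternatives that kept all libraries). The number of rises was 3 without mKO unloading replicate 3.

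Promoters, the 250 bases before to 50 bases after the annotated start of each gene in RefSeq on GRCm38.p6, were searched on both strands for the glucocorticoid response element AGAACANNNTGTTC, where N is any base. It was found in 0.049% of all 32851 promoters and in 0.052% of the 27025 genes with a promoter. Among 19 list members with a promoter in the table, of which 6 were called, 1 had a match, Sgk1, in 1 of its annotated starts. The Sgk1 sequence is shown because it holds that element, marked in capitals, where matches on both strands overlap by all but a base, and the first starts at -189 relative to the start site.
Sgk1 promoter, chr10:21993640-21993939, plus strand: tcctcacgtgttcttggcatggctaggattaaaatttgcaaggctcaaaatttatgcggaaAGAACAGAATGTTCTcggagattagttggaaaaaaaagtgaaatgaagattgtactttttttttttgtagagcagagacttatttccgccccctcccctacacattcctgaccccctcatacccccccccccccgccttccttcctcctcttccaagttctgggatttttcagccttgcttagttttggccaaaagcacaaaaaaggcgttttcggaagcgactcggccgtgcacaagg

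Mt1 encodes a metallothionein, a small protein that binds zinc and copper. It had 6.704, 9.31 and 8.76 CPM in the mKO unloading libraries, against 4.03, 5.81 and 4.25 CPM in the mKO control libraries, without overlap, and a change of 0.81 ± 0.23 log2 (SE, adjusted p = 0.0409), called in 1 of the 6 fits that left out a library, the fit without mKO control replicate 2 (adjusted p up to 0.138, without mKO control replicate 1). With total-count scaling its adjusted p was 0.0527. Its near copies make the count uncertain. Of 20 metallothionein and zinc transporter genes Mt1 rose and the zinc importer Slc39a1 fell, by 0.32 on the log2 scale, not called without mKO unloading replicate 1 or 3 or mKO control replicate 1 or 2 (adjusted p up to 0.109, without mKO unloading replicate 1). The share called was 10%, against 7.75% of all tested genes. The core of the metal response element, TGCACNC or TGCGCNC, was in 25.7% of all promoters. Counted by gene, it was in 28.2% of all genes and in 11 of 18 list members with a promoter. Mt1 is shown with its 3 matches in capitals, of which the first starts at -23.
Mt1 promoter, chr8:94178839-94179138, plus strand: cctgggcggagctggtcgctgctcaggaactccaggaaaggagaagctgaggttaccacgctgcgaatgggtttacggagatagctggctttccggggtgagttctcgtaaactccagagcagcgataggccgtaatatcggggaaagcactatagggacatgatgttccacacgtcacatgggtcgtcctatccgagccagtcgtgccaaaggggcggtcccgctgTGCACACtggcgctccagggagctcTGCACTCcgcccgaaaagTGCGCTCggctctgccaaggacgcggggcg

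Of 26 immediate early genes, which respond within minutes to many stimuli, 5 rose, 0 fell and all 26 had a change above 0, with a median of 0.49 log2. Klf6, a zinc finger transcription factor, had 70.05, 60.9 and 61.5 CPM in the mKO unloading libraries, against 38.01, 48.9 and 40.2 CPM in the mKO control libraries, without overlap, and a change of 0.60 ± 0.13 log2 (SE, adjusted p = 0.012), not called without mKO unloading replicate 1 or mKO control replicate 1 or 3 (adjusted p up to 0.0625, without mKO unloading replicate 1). Atf3 had 26.3, 18.6 and 3.61 CPM in the mKO unloading libraries, against 1.502, 3.42 and 4.46 CPM in the mKO control libraries. Replicates 1 and 2 of mKO unloading were far above all others, replicate 3 was within the control range, and the change of 2.37 ± 0.61 log2 (SE, adjusted p = 0.0238) was not called without mKO unloading replicate 1 or mKO control replicate 1 or 2 (adjusted p up to 0.125, without mKO unloading replicate 1). Klf10, a TGF-β induced factor, changed by 1.15 ± 0.30 log2 (SE, adjusted p = 0.0264), with mKO unloading replicate 2 the highest at 80.4 CPM, and was not called without mKO unloading replicate 2 or mKO control replicate 1 or 3 (adjusted p up to 0.152, without mKO unloading replicate 2). Btg2 and Fosl2 were the remaining calls, at 0.62 and 0.40 log2. None of the 5 was called in every fit that left out 1 library, and the number of rises was 0 without mKO control replicate 1, 1 without mKO control replicate 3 and 2 without mKO unloading replicate 1.

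The stress lists of this paragraph had 8.33% to 16% of their genes called, against 7.75% of all tested genes. Of 25 integrated stress response genes 3 rose and 1 fell, and the number of rises was 1 without mKO unloading replicate 1 or mKO control replicate 1 or 2 and 5 without mKO unloading replicate 2. Ppp1r15a, which helps to dephosphorylate the initiation factor eIF2α, had 52.6, 31.4 and 40.8 CPM in the mKO unloading libraries, against 18.8, 14.8 and 19.5 CPM in the mKO control libraries. The groups were far apart, and the change was 1.23 ± 0.21 log2 (SE, adjusted p = 0.00193). Cebpg, a bZIP factor, changed by 0.39 ± 0.10 log2 (SE, adjusted p = 0.0205), not called without mKO unloading replicate 1 or 3 or mKO control replicate 1 or 2 (adjusted p up to 0.0992, without mKO unloading replicate 1). The fall was Pycr1, an enzyme of proline synthesis, at -0.89 ± 0.17 log2 (SE, adjusted p = 0.00492). Of 25 heat shock genes 3 fell and 1 rose, led by the co-chaperone Hsph1 with 48.6, 67.1 and 51.4 CPM in the mKO unloading libraries, against 86.7, 92.4 and 94.6 CPM in the mKO control libraries and a change of -0.71 ± 0.14 log2 (SE, adjusted p = 0.00426). Hspa4l, another HSP110 chaperone, stood at -0.50, the HSP90 activator Ahsa1 at -0.30 and the transcription factor Hsf2, which rose, at 0.39 log2. None of these was called in all 6 fits without a library (adjusted p up to 0.154, for Hsf2 without mKO unloading replicate 1). Heat shock falls numbered 1 without mKO unloading replicate 1 or 3 and 5 without mKO unloading replicate 2. Of 36 endoplasmic reticulum chaperone genes 3 fell and 0 rose, Sdf2l1 at -0.72, Pdia4 at -0.46 and Pdia3 at -0.45 log2, with 0 without mKO unloading replicate 3 and 1 without mKO unloading replicate 1 or mKO control replicate 2 or 3. Of 31 antioxidant genes 2 fell, the enzymes Cat at -0.48 and Prdx2 at -0.31 log2, and 1 rose, Gclc of glutathione synthesis at 0.37 log2. The antioxidant falls numbered 0 without mKO unloading replicate 1 or 3 or mKO control replicate 2 and 1 without mKO control replicate 3, and Gclc was not called without mKO unloading replicate 1 or 3 or mKO control replicate 1 or 3 (adjusted p up to 0.0958, without mKO unloading replicate 1). Of 22 p53 and growth arrest genes 3 rose and 0 fell, with 0 without mKO control replicate 1 and 1 without mKO unloading replicate 2 or mKO control replicate 3. Eda2r, a receptor of the TNF family, changed by 0.90 ± 0.23 log2 (SE, adjusted p = 0.0246), not called without mKO unloading replicate 1 or mKO control replicate 1 or 2 (adjusted p up to 0.113, without mKO control replicate 2). Cdkn1a, the cell cycle inhibitor p21, had 22.8, 39.5 and 33.02 CPM in the mKO unloading libraries, against 13.1, 18.8 and 16.97 CPM in the mKO control libraries, with no overlap and a change of 0.96 ± 0.24 log2 (SE, adjusted p = 0.0216), not called without mKO unloading replicate 2 or 3 or mKO control replicate 1 or 3 (adjusted p up to 0.0936, without mKO control replicate 1).

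Interferon response genes carry antiviral programmes and are induced through STAT and IRF factors. Of 40 tested 9 fell and 0 rose, 38 had a change below 0, and the median was -0.41 log2. Ifit3, an antiviral effector, had 2.71, 2.12 and 3.14 CPM in the mKO unloading libraries, against 5.56, 4.81 and 5.61 CPM in the mKO control libraries. The highest unloading value was below the lowest control value, and the change was -1.001 ± 0.20 log2 (SE, adjusted p = 0.00583). Ifi44 had 0.502, 1.05 and 0.727 CPM in the mKO unloading libraries, against 2.296, 2.03 and 2.22 CPM in the mKO control libraries, likewise separate, with a change of -1.52 ± 0.28 log2 (SE, adjusted p = 0.00361). Rtp4, an interferon-induced chaperone, changed by -0.76 ± 0.16 log2 (SE, adjusted p = 0.00832). Ifitm3, which blocks virus entry, had 20.5, 20.6 and 21.3 CPM in the mKO unloading libraries, against 27.6, 30.9 and 26.5 CPM in the mKO control libraries, also without overlap, and changed by -0.45 ± 0.10 log2 (SE, adjusted p = 0.00888). Usp18, Oas2 and Oasl2 were called at -0.66, -0.69 and -0.70 log2. Usp18 was not called without mKO unloading replicate 1 or 2 or mKO control replicate 1 or 2 (adjusted p up to 0.0769, without mKO control replicate 2). Oas2 was not called without mKO unloading replicate 1 or 3 or mKO control replicate 2 or 3 (adjusted p up to 0.125, without mKO control replicate 2), and Oasl2 was not called without any 1 of the 6 libraries (adjusted p up to 0.148, without mKO unloading replicate 1). The remaining calls were Gbp3 at -0.54 log2, called in 1 of the 6 fits that left out a library, the fit without mKO unloading replicate 3 (adjusted p up to 0.199, without mKO unloading replicate 1), and Ddx58 at -0.45 log2, not called without mKO unloading replicate 2 or 3 or mKO control replicate 2 or 3 (adjusted p up to 0.102, without mKO control replicate 2), while Isg15 at -0.87 and Mx1 at -1.06 log2 were not called by edgeR. Isg15 was called under 4 of the 7 alternatives, DESeq2 among them (adjusted p from 0.0241 to 0.0968 over the 7 alternatives that kept all libraries). The number of interferon falls was 4 without mKO control replicate 2 and 5 without mKO unloading replicate 1 or mKO control replicate 3. Of 16 MHC genes 2 fell, B2m, the light chain of class I molecules, at -0.44 and H2-Eb1, a class II chain, at -0.74 log2. That is 12.5% of the list called, against 7.75% of all tested genes. The number of MHC falls was 0 without mKO unloading replicate 3 or mKO control replicate 3, 1 without mKO control replicate 2 and 4 without mKO control replicate 1.

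The core of the interferon response element, GAAANNGAAA on either strand, was present in 3.44% of all promoters. Counted by gene, it was in 3.99% of all genes and in 16 of 30 interferon list members with a promoter in the table. Of the 6 called members with a promoter, 4 held it. A match is a description of the sequence and not evidence of binding. Promoters of the called genes Ifit3, Ifitm3 and Gbp3 are shown because they carry 2 matches each, in capitals. The first match starts at -156, 2 and -45 relative to the start site, in that order. Gbp3 has another annotated start, where no match was found. The called genes Ifi44 and Oasl2 had no match, and Isg15, which edgeR did not call, had 3. Whether a match goes with a fall was not tested. In Gbp3 the matches overlap. In Ifit3 and Gbp3 they lie on the strand opposite to the one printed.
Ifit3 promoter, chr19:34583279-34583578, plus strand: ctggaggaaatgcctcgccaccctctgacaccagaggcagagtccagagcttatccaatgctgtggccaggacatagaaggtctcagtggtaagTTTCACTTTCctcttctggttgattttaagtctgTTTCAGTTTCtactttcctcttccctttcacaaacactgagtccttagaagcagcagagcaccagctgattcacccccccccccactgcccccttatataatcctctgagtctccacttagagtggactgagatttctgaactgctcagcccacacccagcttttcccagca
Ifitm3 promoter, chr7:141010695-141010994, minus strand: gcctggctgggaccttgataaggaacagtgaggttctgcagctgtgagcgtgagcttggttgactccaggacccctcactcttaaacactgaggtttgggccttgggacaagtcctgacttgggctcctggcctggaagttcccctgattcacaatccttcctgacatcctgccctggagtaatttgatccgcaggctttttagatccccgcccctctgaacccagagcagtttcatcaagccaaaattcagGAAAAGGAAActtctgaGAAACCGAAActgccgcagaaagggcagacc
Gbp3 promoter, chr3:142559794-142560093, plus strand: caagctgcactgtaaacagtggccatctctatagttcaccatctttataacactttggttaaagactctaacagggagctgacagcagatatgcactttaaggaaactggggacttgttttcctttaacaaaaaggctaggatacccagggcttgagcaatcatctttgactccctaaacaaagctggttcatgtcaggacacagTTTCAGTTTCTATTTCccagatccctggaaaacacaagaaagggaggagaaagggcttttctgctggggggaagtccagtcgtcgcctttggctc

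Dividing cells are rare in resting muscle, and cell cycle transcripts were at low levels. Of 39 tested 7 fell and 0 rose, with a median of -0.63 log2 and 36 changes below 0. Mki67, a marker of proliferating cells, had 0.437, 0.569 and 0.598 CPM in the mKO unloading libraries, against 1.67, 2.82 and 2.12 CPM in the mKO control libraries. The unloading libraries were all under 1 CPM and apart from the controls, and the change was -2.04 ± 0.48 log2 (SE, adjusted p = 0.0145). Top2a, the topoisomerase that untangles replicated DNA, had 0.262, 1.001 and 0.257 CPM in the mKO unloading libraries, against 1.01, 2.37 and 1.69 CPM in the mKO control libraries, where mKO unloading replicate 2 was close to the lowest control, and a change of -1.75 ± 0.45 log2 (SE, adjusted p = 0.024). Cdk1, Cenpf, Cenpe, Kif20a and Cenpa were called at -2.12, -1.89, -1.74, -0.93 and -0.71 log2. None of these was called in all 6 fits without a library (adjusted p up to 0.21, for Cenpf without mKO control replicate 2). Cdk1 and Cenpe were not called without any 1 of the 6 libraries (adjusted p up to 0.151 and 0.11, without mKO unloading replicate 1). The number of falls was 0 without mKO unloading replicate 3 or mKO control replicate 2, 1 without mKO unloading replicate 1, 2 without mKO control replicate 3 and 4 without mKO control replicate 1. Mki67 was not called without mKO unloading replicate 1 or 3 or mKO control replicate 2 (adjusted p up to 0.0742, without mKO unloading replicate 1), and Top2a was not called without mKO unloading replicate 1 or 3 or mKO control replicate 2 or 3 (adjusted p up to 0.121, without mKO unloading replicate 1).

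**Figure D4:**
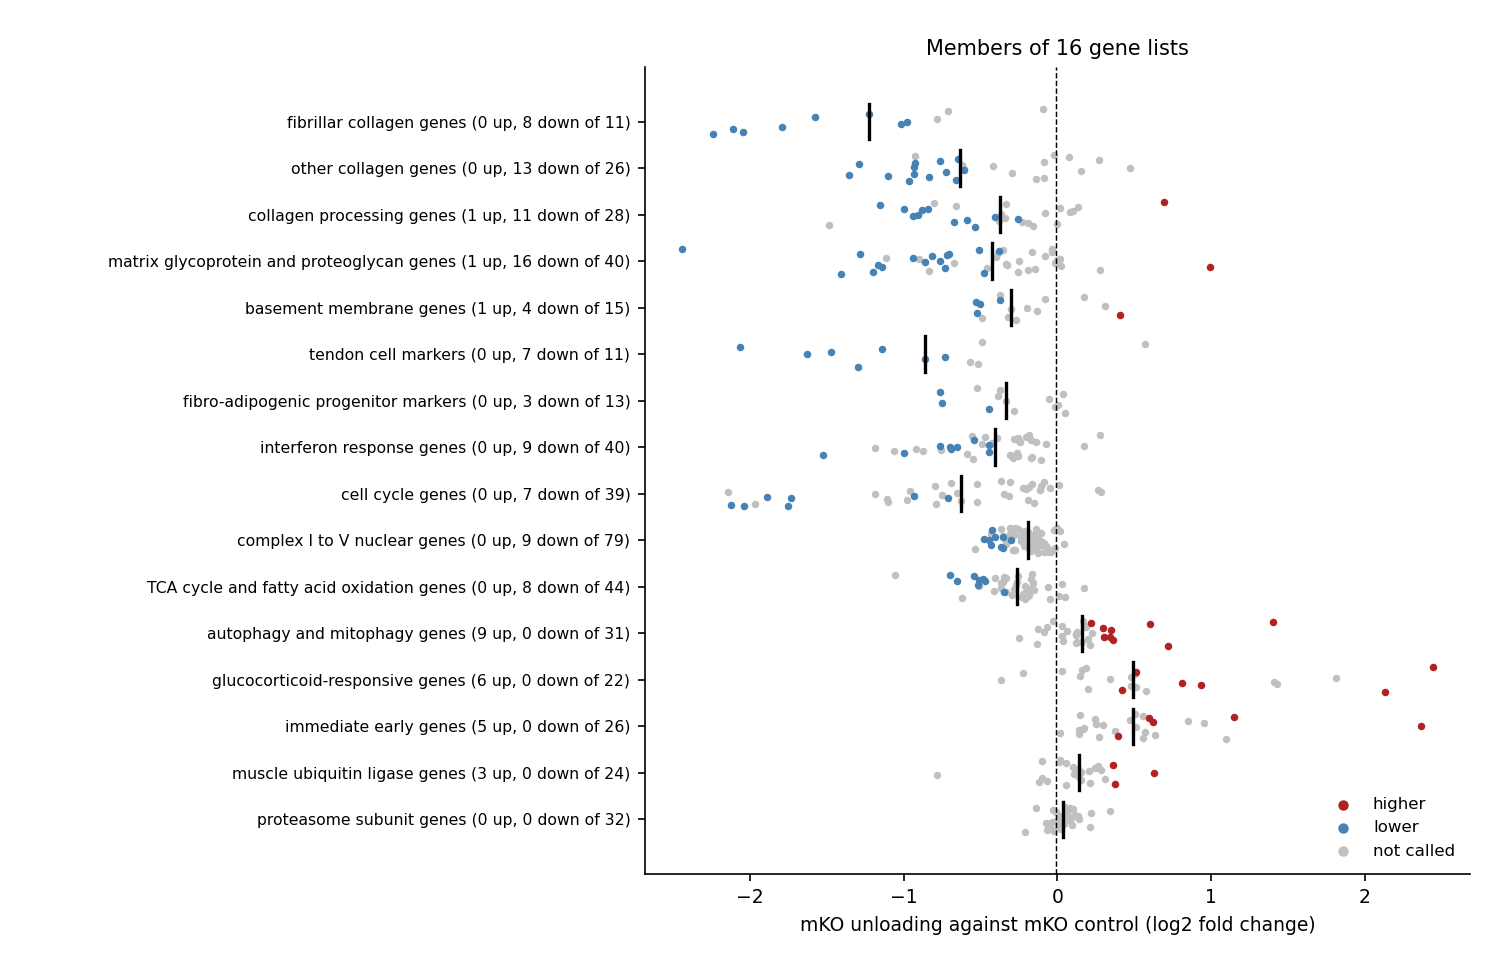
Log2 fold change (horizontal axis, mKO unloading over mKO control) of every tested member of 16 gene lists, a row each, with the numbers of members called beside the name. Red points rose, blue points fell, grey points were not called, the black bar is the list median and the dashed line the median of all tested genes at -0.0063 log2.

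Contractile genes differed by list. Of 15 fast fibre genes 2 rose and 2 fell, which is 26.7% called, against 7.75% of all tested genes. Of 12 slow fibre genes edgeR called 0, as in each of the 6 fits without a library. Of these slow fibre genes 2 had an unadjusted p under 0.05, and DESeq2 called 0 and edgeR without a low-count filter 3. The fast fibre rises numbered 0 without mKO unloading replicate 1 or 3 or mKO control replicate 3 and 1 without mKO control replicate 2, and the falls 0 without mKO unloading replicate 1 or 3 or mKO control replicate 2 and 1 without mKO unloading replicate 2 or mKO control replicate 1 or 3. Myh2, the myosin heavy chain of oxidative IIA fibres, had 1478, 1627 and 1352 CPM in the mKO unloading libraries, against 2022, 2955 and 3665 CPM in the mKO control libraries. The unloading values were all below the control values, and the change of -0.96 ± 0.29 log2 (SE, adjusted p = 0.0494) was just past the threshold. It was called in 1 of the 6 fits that left out a library, the fit without mKO control replicate 1 (adjusted p up to 0.183, without mKO control replicate 3), and with RLE scaling its adjusted p was 0.051. Per length of transcript, Myh2 made up 2.30% ± 0.24 (SD, n = 3) of the sum of Myh4, Myh1, Myh2 and Myh7 in unloading libraries and 4.25% ± 0.79 in control libraries. The share of Myh4, the fastest isoform, was 91.5% ± 0.62 in unloading libraries and 89.7% ± 1.55 in control libraries, ranges of 90.8% to 92% and 87.9% to 90.8%. The slow isoform Myh7 held 0.447% and 0.401%.

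Actn3, the fast fibre actinin of the Z-disc, had 13860, 10010 and 12790 CPM in the mKO unloading libraries, against 8564, 9154 and 7951 CPM in the mKO control libraries. All unloading values were above all control values, and it changed by 0.51 ± 0.12 log2 (SE, adjusted p = 0.0144), not called without mKO unloading replicate 1 or 3 or mKO control replicate 3 (adjusted p up to 0.0803, without mKO unloading replicate 1). Myom1, myomesin of the M-band, had 2077, 2154 and 2325 CPM in the mKO unloading libraries, against 1405, 1690 and 1743 CPM in the mKO control libraries, a change of 0.44 ± 0.09 log2 (SE, adjusted p = 0.00598) that held without each library. Tpm2, β-tropomyosin, had 2890, 3469 and 3017 CPM in the mKO unloading libraries, against 5037, 5198 and 5325 CPM in the mKO control libraries, clear of each other, and a change of -0.73 ± 0.16 log2 (SE, adjusted p = 0.00902), not called without mKO unloading replicate 1 (adjusted p = 0.0522). Myl1, the fast essential light chain, changed by -0.47 ± 0.13 log2 (SE, adjusted p = 0.032), not called without mKO unloading replicate 1 or 3 or mKO control replicate 1 or 2 (adjusted p up to 0.151, without mKO unloading replicate 1). Myoz1, a Z-disc protein that binds calcineurin, changed by 0.35 ± 0.10 log2 (SE, adjusted p = 0.0356), not called without mKO unloading replicate 1 or 3 or mKO control replicate 2 or 3 (adjusted p up to 0.154, without mKO unloading replicate 1). Acta1, skeletal α-actin, had 14380, 23300 and 21670 CPM in the mKO unloading libraries, against 25990, 35430 and 25710 CPM in the mKO control libraries. Its groups did not overlap, yet its change of -0.55 ± 0.19 log2 (SE, adjusted p = 0.0849) did not pass with edgeR. It was called with DESeq2 and without a low-count filter (adjusted p from 1.78e-05 to 0.12 over the 7 alternatives that kept all libraries).

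Of 14 sarcomere strain and repair genes 7.14% were called, against 7.75% of all tested genes. Xirp1, an actin-binding protein of sites of damage and of the myotendinous junction, was the one that rose. It had 388, 263 and 114 CPM in the mKO unloading libraries, against 66.7, 77.2 and 113 CPM in the mKO control libraries. Replicate 3 of mKO unloading was close to the highest control, and the change of 1.57 ± 0.41 log2 (SE, adjusted p = 0.0269) was not called without mKO unloading replicate 1 or mKO control replicate 1 or 2 (adjusted p up to 0.151, without mKO unloading replicate 1). Igfn1, a Z-disc protein, had 231, 67.04 and 99.4 CPM in the mKO unloading libraries, against 39.8, 30.9 and 48.2 CPM in the mKO control libraries, with replicate 1 of mKO unloading the highest, no overlap and a change of 1.74 ± 0.31 log2 (SE, adjusted p = 0.00277). In the dystrophin complex and costamere list 3 of 21 rose and 1 fell. Sntb1, a syntrophin that ties signalling proteins to dystrophin, had 38.4, 51.6 and 43.5 CPM in the mKO unloading libraries, against 16.6, 19.2 and 23.1 CPM in the mKO control libraries. The groups were separate, and the change was 1.18 ± 0.15 log2 (SE, adjusted p = 0.000192). Sspn, sarcospan, changed by -0.42 ± 0.07 log2 (SE, adjusted p = 0.00264) and Itga7, the integrin of the muscle fibre, by 0.54 ± 0.12 log2 (SE, adjusted p = 0.0105), not called without mKO unloading replicate 3 or mKO control replicate 1 (adjusted p up to 0.0547, without mKO control replicate 1). Of 22 calcium release and uptake genes edgeR called 0, 6 had an unadjusted p under 0.05, and DESeq2 called 1 and edgeR without a low-count filter 3. Among them were the release channel Ryr1 at 0.14, its anchor Trdn at 0.14 and the fast calcium pump Atp2a1 at 0.25 log2. Ttn, titin, stood at 0.18, Xirp2, a relative of Xirp1, at -0.10 and Nrap, a protein of the myotendinous junction, at 0.39 log2, all without a call from edgeR. Nrap was called with DESeq2 and without a low-count filter (adjusted p from 0.00473 to 0.137 over the 7 alternatives that kept all libraries).

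Signalling genes moved in both directions. Lgr6, an R-spondin receptor that strengthens Wnt signals, had 0.328, 0.091 and 0.299 CPM in the mKO unloading libraries, against 1.27, 1.99 and 1.27 CPM in the mKO control libraries. Its levels were low and did not overlap, and the change was -2.64 ± 0.42 log2 (SE, adjusted p = 0.00134). Wif1, a secreted Wnt inhibitor, had 2.97, 4.89 and 3.29 CPM in the mKO unloading libraries, against 9.59, 8.77 and 10.5 CPM in the mKO control libraries, also apart, and a change of -1.37 ± 0.25 log2 (SE, adjusted p = 0.00324). Aplnr, the apelin receptor, had 5.96, 8.53 and 9.45 CPM in the mKO unloading libraries, against 25.9, 21.1 and 19.8 CPM in the mKO control libraries, a change of -1.48 ± 0.16 log2 (SE, adjusted p = 9.49e-05) with the groups far apart, and its ligand Apln changed by -0.76 ± 0.23 log2 (SE, adjusted p = 0.0486), called in 1 of the 6 fits that left out a library, the fit without mKO control replicate 3 (adjusted p up to 0.193, without mKO control replicate 2). Of 26 IGF, insulin and mTOR genes 4 rose and 2 fell. The rises numbered 2 without mKO unloading replicate 3 or mKO control replicate 3, and the falls 1 without mKO unloading replicate 1 or 3 or mKO control replicate 2 or 3. Pik3r1, the regulatory subunit of phosphoinositide 3-kinase, changed by 0.67 ± 0.14 log2 (SE, adjusted p = 0.00693), the IGF-binding protein gene Igfbp3 by 0.65 ± 0.13 log2 (SE, adjusted p = 0.00717) and its relative Igfbp7 by -0.60 ± 0.12 log2 (SE, adjusted p = 0.00711). The receptor Igf1r stood at 0.48, the kinase Akt2 at 0.34 and Igfbp4 at -0.37 log2. Of these, Pik3r1, Igfbp3 and Igfbp7 were called in each of the 6 fits without a library and Igf1r, Akt2 and Igfbp4 were not (adjusted p up to 0.221, for Igfbp4 without mKO unloading replicate 1). Of 30 myostatin, activin and BMP genes 3 rose and 3 fell, and the rises numbered 1 without mKO unloading replicate 1. Fstl1, a secreted follistatin-like protein, had 67.2, 81.6 and 63.4 CPM in the mKO unloading libraries, against 117, 128 and 141 CPM in the mKO control libraries, without overlap, and changed by -0.86 ± 0.13 log2 (SE, adjusted p = 0.000974), while Tgfbr1, a TGF-β receptor, changed by 0.39 ± 0.08 log2 (SE, adjusted p = 0.00791). Gdf11, a close relative of myostatin, stood at -0.77 and Bmp1, a procollagen protease, at -0.46 log2. The activin receptor Acvr2a stood at 0.47 and the signal mediator Smad4 at 0.25 log2. Of these, Fstl1, Tgfbr1 and Bmp1 were called in each of the 6 fits without a library and Gdf11, Acvr2a and Smad4 were not (adjusted p up to 0.0921, for Smad4 without mKO control replicate 1).

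At the neuromuscular junction 1 of 25 genes rose and 1 fell, with 2 rises without mKO unloading replicate 3. The share called was 8.0%, near the 7.75% of all tested genes. Chrnb1, the β subunit of the muscle acetylcholine receptor, had 54.9, 52.9 and 52.4 CPM in the mKO unloading libraries, against 32.7, 33.7 and 34.3 CPM in the mKO control libraries. The values within each group were close together, and the change was 0.67 ± 0.14 log2 (SE, adjusted p = 0.00763). Gap43, a growth cone protein, was called lower from levels under 1 CPM, at -1.80 log2, and was called in 1 of the 6 fits that left out a library, the fit without mKO control replicate 2 (adjusted p up to 0.143, without mKO control replicate 3). Among 26 myogenic genes Eya4, a transcriptional cofactor, rose by 0.52 and the Notch target Heyl fell by 0.34 on the log2 scale. The myogenic share called, 7.69%, was also near that of all tested genes. Eya4 was not called without mKO unloading replicate 1 or mKO control replicate 1 (adjusted p up to 0.0772, without mKO unloading replicate 1), and Heyl was called in 1 of the 6 fits that left out a library, the fit without mKO unloading replicate 2 (adjusted p up to 0.129, without mKO unloading replicate 1).

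The circadian clock runs on a loop of activators, repressors and nuclear receptors. Of 22 clock genes 2 rose and 0 fell, which is 9.09% called, near the 7.75% of all tested genes. Rora, the nuclear receptor RORα, had 258, 207 and 222 CPM in the mKO unloading libraries, against 180.5, 170.4 and 181 CPM in the mKO control libraries, without overlap, and a change of 0.37 ± 0.11 log2 (SE, adjusted p = 0.0403). It was called in 1 of the 6 fits that left out a library, the fit without mKO unloading replicate 2 (adjusted p up to 0.191, without mKO unloading replicate 1). The activators Arntl, Clock and Npas2 stood at 0.80 ± 0.53, 0.44 ± 0.21 and 0.49 ± 0.72 log2 and were not called by edgeR. Nor were the repressors Per1, Per2, Per3, Cry1 and Cry2, at 0.51, 0.20, -0.17, 0.19 and 0.17 log2, or the REV-ERB receptors Nr1d1 and Nr1d2, at 0.08 and -0.11 log2. The output factors Dbp, Tef, Hlf, Nfil3 and Ciart were at -0.64, -0.10, -0.31, 0.41 and -0.20 log2. Rorb stood at -0.24, Bhlhe40 at 0.20, Bhlhe41 at -0.14, Csnk1d at 0.06 and Csnk1e at 0.33 log2, all without a call from edgeR. Csnk1e was called with DESeq2 and without a low-count filter (adjusted p from 0.0194 to 0.111 over the 7 alternatives that kept all libraries) and Dbp was called without a low-count filter and in a fit of the mKO groups alone (adjusted p from 8.12e-09 to 0.103 over the 7 alternatives that kept all libraries). Arntl, Clock, Per1 and Nfil3 were each called without a low-count filter (adjusted p = 4.43e-07, 0.000504, 1.99e-05 and 0.0452) and under no other of those 7 alternatives (adjusted p up to 0.489, for Arntl). That fit was out of line with the others, and these calls are not relied on. The signs of Per2, Per3, Cry1, Nr1d1, Tef, Bhlhe41 and Ciart turned when single libraries were left out. The E-box CACGTG was in 7.15% of all promoters. Counted by gene, it was in 8.09% of all genes and in 5 of 18 clock genes with a promoter in the table.

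Several of the genes with the largest changes or smallest p were on none of the lists. Rbm3, an RNA-binding protein induced by cold, had 95.8, 70.96 and 101 CPM in the mKO unloading libraries, against 41.6, 43.2 and 37.6 CPM in the mKO control libraries. The groups were far apart, and the change was 1.13 ± 0.13 log2 (SE, adjusted p = 0.000148). Ybx3, a Y-box protein that binds RNA, had 1801, 1400 and 1636 CPM in the mKO unloading libraries, against 1016, 866 and 985 CPM in the mKO control libraries, a change of 0.76 ± 0.10 log2 (SE, adjusted p = 0.000249). Pde4dip, myomegalin, an anchor of the Golgi and centrosome, changed by 0.57 ± 0.09 log2 (SE, adjusted p = 0.00153) and the kinesin Kif1c by 0.55 ± 0.10 log2 (SE, adjusted p = 0.00312). Both groups were separate in each of these. Chrna2, a neuronal acetylcholine receptor subunit, had 0.131, 0.455 and 0.0855 CPM in the mKO unloading libraries, against 1.48, 1.75 and 0.677 CPM in the mKO control libraries, a change of -2.54 ± 0.73 log2 (SE, adjusted p = 0.04). Muc4, a membrane mucin, changed by 1.82 ± 0.46 log2 (SE, adjusted p = 0.0214), and Odf3l2 by 1.89 ± 0.40 log2 (SE, adjusted p = 0.00888). None of these was called in all 6 fits without a library (adjusted p up to 0.153, for Chrna2 without mKO unloading replicate 1). Tmem100, a membrane protein of endothelial cells, had 30.4, 26.4 and 18.2 CPM in the mKO unloading libraries, against 5.17, 8.67 and 8.49 CPM in the mKO control libraries, a change of 1.75 ± 0.27 log2 (SE, adjusted p = 0.00119). Art3, of the ADP-ribosyltransferase family, changed by 0.80 ± 0.09 log2 (SE, adjusted p = 0.000162). H19, an imprinted long non-coding RNA, had 447, 605 and 357 CPM in the mKO unloading libraries, against 999, 1195 and 845 CPM in the mKO control libraries. All unloading values were under the control values, and the change was -1.11 ± 0.21 log2 (SE, adjusted p = 0.0041). Nkain1, a partner of the sodium pump, had 9.32, 9.22 and 9.04 CPM in the mKO unloading libraries, against 19.2, 19.8 and 18.4 CPM in the mKO control libraries, with very little spread within a group, and a change of -1.06 ± 0.12 log2 (SE, adjusted p = 0.000143). Ppic, cyclophilin C, changed by -0.72 ± 0.08 log2 (SE, adjusted p = 9.75e-05).

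Mss51, a mitochondrial protein of fast muscle, had 363, 259 and 329.8 CPM in the mKO unloading libraries, against 132, 44.5 and 132 CPM in the mKO control libraries. Its unloading values were all above its control values, of which replicate 2 was the lowest, and the change was 1.63 ± 0.31 log2 (SE, adjusted p = 0.00433). Smox, spermine oxidase of the polyamine pathway, had 173, 195 and 257 CPM in the mKO unloading libraries, against 114, 109 and 99.7 CPM in the mKO control libraries, also apart, and a change of 0.96 ± 0.16 log2 (SE, adjusted p = 0.00231). Pnmt, the enzyme that turns noradrenaline into adrenaline, had 3.54, 1.96 and 3.14 CPM in the mKO unloading libraries, against 0.73, 0.804 and 0.677 CPM in the mKO control libraries, a change of 1.96 ± 0.33 log2 (SE, adjusted p = 0.00227). Car3, carbonic anhydrase 3 of slow fibres, had 3498, 4042 and 4677 CPM in the mKO unloading libraries, against 5102, 6037 and 4915 CPM in the mKO control libraries. The groups did not overlap, and the change of -0.39 ± 0.12 log2 (SE, adjusted p = 0.0458) was called in 1 of the 6 fits that left out a library, the fit without mKO unloading replicate 3 (adjusted p up to 0.207, without mKO unloading replicate 1). Inmt, which methylates indole amines, changed by 1.67 ± 0.36 log2 (SE, adjusted p = 0.00946), Slc28a1, a nucleoside transporter, by 1.62 ± 0.28 log2 (SE, adjusted p = 0.00266) and the tubulin-binding protein gene Tppp2 by 1.89 ± 0.35 log2 (SE, adjusted p = 0.00364). Among low genes that fell, Cnga3, a cyclic nucleotide-gated channel, changed by -1.86 ± 0.33 log2 (SE, adjusted p = 0.00264), Akap5, an anchor of protein kinase A, by -1.81 ± 0.38 log2 (SE, adjusted p = 0.00804), Adgrb2, an adhesion receptor, by -2.04 ± 0.40 log2 (SE, adjusted p = 0.00524) and Matn3, a cartilage matrilin, by -1.93 ± 0.39 log2 (SE, adjusted p = 0.00634). Tbx3os1, at 1.75 log2, is antisense to Tbx3, and Hist1h1e, a linker histone at -1.77 log2, and Gbp10 at 1.51 log2, called in 1 of the 6 fits that left out a library, the fit without mKO unloading replicate 3 (adjusted p up to 0.126, without mKO unloading replicate 1), have near copies, so their counts are uncertain.

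Of 27 genes on the list of secreted factors of muscle 2 rose and 3 fell, Mss51, Pnmt, Lgr6 and Wif1 among them. Mss51, Pnmt and Lgr6 do not encode secreted proteins, and Wif1 does. The remaining call was Fndc5, the precursor of irisin, which fell by 0.62 on the log2 scale (adjusted p = 0.0382) and was called in 1 of the 6 fits that left out a library, the fit without mKO unloading replicate 2 (adjusted p up to 0.133, without mKO unloading replicate 1). Of 32 cytokine and chemokine genes edgeR called 0, 10 had an unadjusted p under 0.05, and DESeq2 called 2 and edgeR without a low-count filter 7. The chemokine gene Cxcl12, at -0.35 log2, was called with a filter of 1 CPM in 3 libraries, with DESeq2 and without a low-count filter (adjusted p from 0.00788 to 0.0987 over the 7 alternatives that kept all libraries). In the ribosomal protein list 1 of 45 rose, Rpl4, at 0.37 ± 0.07 log2 (SE, adjusted p = 0.00663), and that count was 6 without mKO unloading replicate 2. In the list of ribosome production 1 of 30 rose, Mxi1, a repressor of MYC targets, at 0.33 log2, called in 1 of the 6 fits that left out a library, the fit without mKO unloading replicate 2 (adjusted p up to 0.203, without mKO unloading replicate 1). Of 22 YAP and TEAD genes Lats1, a Hippo pathway kinase, rose at 0.39 ± 0.07 log2 (SE, adjusted p = 0.00339), and the MRTF coactivator Mrtfb at 0.39 log2, not called without any 1 of the 6 libraries (adjusted p up to 0.147, without mKO unloading replicate 3). Of 29 angiogenesis and hypoxia genes 3 fell, Aplnr, Apln and Angptl2, the last at -0.45 log2, called in 1 of the 6 fits that left out a library, the fit without mKO unloading replicate 2 (adjusted p up to 0.18, without mKO unloading replicate 1). The number of these falls was 1 without mKO unloading replicate 1 or 3 or mKO control replicate 2. Of 34 lipid genes Fabp3 and Gpam, an enzyme of triglyceride synthesis at -0.40 log2, fell, and Gpam was called in 1 of the 6 fits that left out a library, the fit without mKO control replicate 1 (adjusted p up to 0.162, without mKO control replicate 2). Shares called were 2.22% of ribosomal protein, 3.33% of ribosome production, 9.09% of YAP and TEAD, 10.34% of angiogenesis and 5.88% of lipid genes. Over all tested genes the share was 7.75%.

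The same contrast in flox muscle, which has its own unloading and control libraries, called 1024 genes, 5.74% of those tested. Of the genes that rose in mKO muscle, 295 also rose in flox muscle, which is 40.5% of the mKO list and 61.8% of the flox list. Of those that fell, 277 also fell in flox muscle, 42.4% of the mKO list and 50.6% of the flox list. None was called in opposite directions. Of the mKO rises 713 had a flox change above 0, and of the mKO falls 633 had one below 0. The change was 2.13 in mKO and 2.19 log2 in flox muscle for Fkbp5, -2.24 and -1.97 for Col1a1 and -1.41 and -0.97 for Sparc.

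A test of the difference itself, the mKO change minus the flox change, called 0 of 17833 genes, 0% of those tested, with edgeR. At an unadjusted p under 0.05 there were 733, no more than that threshold alone would give among 17833 genes without a difference. DESeq2 also called 0. Without the low-count filter edgeR called 122, of which 120 were also among the 17833 and which included Sh2d6, Stum and Mycn (adjusted p = 0.01, 0.0151 and 0.00907). Unequal list counts in the genotypes are therefore given side by side and are not shown to differ. Cell cycle genes had 7 falls and 0 rises in mKO and 0 falls and 1 rise in flox muscle, with medians of -0.63 and -0.13 log2. Interferon genes had 9 falls in mKO and 1 in flox muscle, with medians of -0.41 and -0.18 log2, and immediate early genes 5 rises in mKO and 0 in flox muscle, with medians of 0.49 and 0.004 log2. Fibrillar collagens fell in 8 of 11 cases in mKO and in 6 of 11 in flox muscle. Genes of the TCA cycle and fatty acid oxidation fell in 8 of 44 cases in mKO and in 17 of 44 in flox muscle.

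The 5 genes with the smallest interaction p, none of which passed, were Sh2d6, Stum, Rnf114, Gng2 and Mycn. Mycn, a MYC family transcription factor, had 1.25, 1.27 and 1.26 CPM in the mKO unloading libraries, against 2.296, 1.99 and 2.41 CPM in the mKO control libraries. In flox muscle it had 0.576, 1.24 and 0.654 CPM in the flox unloading libraries, against 4.39, 4.81 and 2.99 CPM in the flox control libraries. Each genotype had its unloading values below its control values, by 0.82 in mKO and 2.30 log2 in flox muscle, and the interaction was 1.48 ± 0.39 log2 (SE, adjusted p = 1 from edgeR). The mKO change of Mycn was not called by edgeR. It was called with DESeq2, without a low-count filter and in a fit of the mKO groups alone (adjusted p from 0.018 to 0.0748 over the 7 alternatives that kept all libraries). Stum changed by 0.84 in mKO and -0.49 log2 in flox muscle, Rnf114, a ubiquitin ligase, by 0.29 and -0.13, and Gng2, a G protein subunit, by 0.04 and 0.77.

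**Figure D5:**
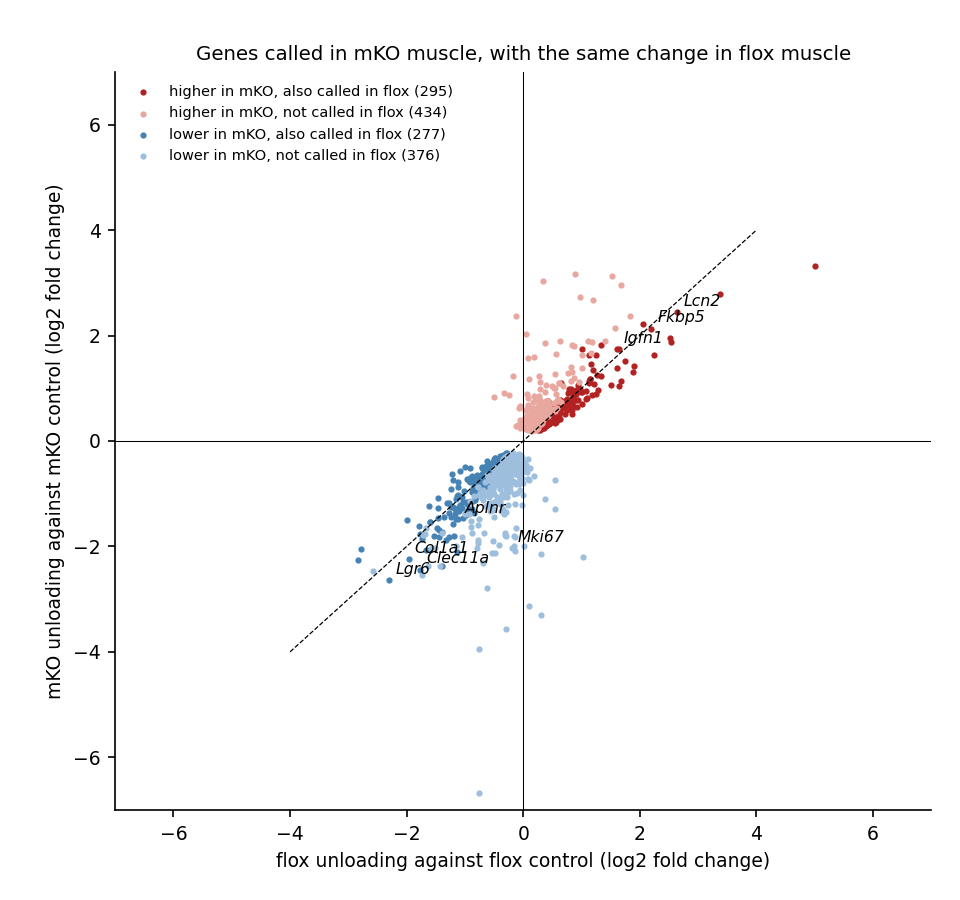
Log2 fold change after unloading in mKO muscle (vertical axis) against that in flox muscle (horizontal axis) for the 1382 genes called in mKO muscle. Dark points, 295 higher and 277 lower, were called in the same direction in flox muscle, and light points were not; the dashed line marks equal change.

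The authors' deposited table named for unloading against control in mKO muscle lists 30881 genes and gives a smallest adjusted p of 0.202, so none was under 0.05, and its largest absolute log2 fold change is 0.0011. Across the 17833 tested genes, which are not independent replicates, its signed p ranks had a Spearman correlation of 0.462 with the mKO contrast described here and of 0.999 with the difference of the change between genotypes. Its values are therefore not set beside the changes above.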

How the data were processed

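Polyadenylated RNA of mouse gastrocnemius was sequenced from TruSeq stranded libraries, per the labels' protocols. The aligner was STAR 2.7.3a, the build GRCm38.p6, and reads were counted per gene with featureCounts 2.0.3, per the submitters' processing notes. The file header names featureCounts 1.6.4 and Ensembl release 94 and shows no strand or multi-mapping option. The deposited counts per gene are raw read counts. The authors' deposited table of log2 fold changes and p-values for mKO unloading was described and not used for calls, since its ranks follow the interaction. Reference promoters are from RefSeq. Genes were kept with filterByExpr, and 17833 remained. A single edgeR 4.0.16 quasi-likelihood model with TMM factors was fitted in R 4.3.3 to the 18 libraries in 6 groups (mKO and flox; unloading, 3 days of reloading, control), with Benjamini-Hochberg adjustment over all tested genes and calls at 0.05. DESeq2 1.42.0, RLE and total-count scaling, filters, a replicate block, a fit of the compared groups alone and omission of each library were alternatives. Per-library totals were 45069595 to 51592566. Scripts were tested on simulated data. The members and lists were chosen with earlier results of these data known. Named were Zfp697, the 15 largest rises and falls, the 10 smallest p-values and the 8 largest rises and falls in mean CPM among called genes of at least 1 CPM without overlap, up to 6 called members of each of 59 lists or the 2 most abundant, all clock genes and the 5 smallest interaction p-values. Of the 252 genes so named, those that bear on a statement are printed, and some are not reported here. Another 33 were chosen after their values were seen: Ccn1, Cebpd, Cenpa, Col24a1, Col27a1, Col5a1, Col5a2, Col5a3, Dcn, Ddit4, Ddx58, Fbxo32, Fn1, Gbp3, Ifitm3, Isg15, Mkx, Mt2, Mx1, Pax7, Pdgfra, Scx, Gpt2, Ifrd1, Cirbp, Lpin1, Aldh1a1, Nrep, Ckmt2, Gamt, Meg3, Rian and Slc38a2.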

Additional observations from a re-analysis of the deposited data

Results flagged for a closer look

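Sh2d6, which encodes a protein with an SH2 domain, had fold changes of opposite sign in the genotypes, of which the flox change was not called. It had 1.64, 1.57 and 1.77 CPM in the mKO unloading libraries, against 3.004, 2.796 and 2.56 CPM in the mKO control libraries. In flox muscle it had 2.82, 2.296 and 2.08 CPM in the flox unloading libraries, against 1.597, 1.71 and 1.598 CPM in the flox control libraries. Every mKO unloading library lay below every mKO control library, and every flox unloading library above every flox control library. Ranges of the mKO groups did not overlap in 27.6% of all tested genes. The change was -0.75 ± 0.19 log2 (SE, adjusted p = 0.0226) in mKO and 0.55 ± 0.19 log2 (SE, adjusted p = 0.0978) in flox muscle, and the mKO change was called in 1 of the 6 fits that left out a library, the fit without mKO control replicate 3 (adjusted p up to 0.0823, without mKO unloading replicate 1). The difference of the changes, mKO minus flox, was -1.30 ± 0.27 log2 (SE), which did not pass over all tested genes (edgeR quasi-likelihood test, adjusted p = 1). It was the smallest of 17833 p-values, and the gene was picked out by that rank. Such a rank favours separate groups with changes of opposite sign, so the separation adds no support for a difference.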

How the results depend on the processing

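The number of genes called in mKO muscle, 1382, was 1378 with RLE factors, 1206 with total counts, 1539 with a filter of 1 CPM in 3 libraries, 1876 without a low-count filter and 1976 with DESeq2. It was 879 when the 2 mKO groups alone were fitted, with 787 of the 1382 among them, and ran from 508 to 1466 over the fits that left out 1 library. The flox count of 1024 was 1550 with DESeq2 and 1651 with no low-count filter, and ran from 364 to 801 over the fits without 1 flox library. The count of interaction calls was 0 under every alternative except the fit with no low-count filter, which called 122, and the cause was not tested. Those 122 genes had a median of 994 counts per library, so most were not low. In the mKO contrast the edgeR adjusted p of Cebpd was 5.78e-39 in that fit and up to 0.0633 in others. Calls made in that fit alone are not relied on. Same-numbered libraries of the mKO groups correlated at 0.055, 0.089 and -0.005 in their deviations from the group means. Differently numbered ones correlated at -0.087 to 0.038. A pairing that touches few genes need not show in such values, so they do not settle whether the numbers pair the samples. With the number as a replicate block 1503 genes were called in mKO muscle, 1314 of them among the 1382, 1124 in flox muscle and 0 for the interaction. Of the 204 named genes called, 92 were called in each fit without 1 library and 162 under each other alternative, and none turned its sign. Signs turned only in genes without a call and only when 1 library was left out, with log2 fold changes over those fits of -0.008 to 0.274 for Atp2a2, -0.075 to 0.057 for Stat3, -0.13 to 0.505 for Cfd, -0.189 to 0.045 for Amd1, -0.113 to 0.045 for Myh4, -0.001 to 0.138 for Ptprb, -0.102 to 0.025 for Rgs5, -0.04 to 0.075 for Abcc9, -0.336 to 0.006 for Tpsb2, -0.081 to 0.605 for Per2, -0.367 to 0.094 for Per3, -0.006 to 0.347 for Cry1, -0.258 to 0.266 for Nr1d1, -0.185 to 0.006 for Tef, -0.217 to 0.024 for Bhlhe41, -0.4 to 0.039 for Ciart, -0.051 to 0.136 for Gng2, -0.085 to 0.041 for Pax7, -0.056 to 0.224 for Pdgfra, -0.112 to 0.102 for Dcn and -0.16 to 0.266 for Fbxo32. With 3 libraries a group and calls of this size, low genes and small changes depend on single libraries.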

Other observations

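Some genes on none of the lists were picked after their values were seen, for the processes they belong to, and are given as values. Cirbp, a cold-inducible RNA-binding protein and relative of Rbm3, had 58.3, 42.4 and 63.8 CPM in the mKO unloading libraries, against 38.3, 28.02 and 33.9 CPM in the mKO control libraries, without overlap, and a change of 0.72 ± 0.16 log2 (SE, adjusted p = 0.0125). Meg3, a non-coding RNA of the imprinted Dlk1-Dio3 region, had 33.4, 34.1 and 34.02 CPM in the mKO unloading libraries, against 70.2, 53.3 and 45.99 CPM in the mKO control libraries, a change of -0.74 ± 0.18 log2 (SE, adjusted p = 0.0171), and Rian, of the same region, changed by -1.03 ± 0.23 log2 (SE, adjusted p = 0.0118). None of these was called in all 6 fits without a library (adjusted p up to 0.0905, for Meg3 without mKO control replicate 1). Gamt, the last enzyme of creatine synthesis, had 2.58, 4.21 and 6.05 CPM in the mKO unloading libraries, against 14.7, 11.04 and 11.6 CPM in the mKO control libraries, a change of -1.54 ± 0.23 log2 (SE, adjusted p = 0.000974), and Ckmt2, the mitochondrial creatine kinase, had 452, 632 and 456 CPM in the mKO unloading libraries, against 908, 770.1 and 921 CPM in the mKO control libraries, a change of -0.75 ± 0.17 log2 (SE, adjusted p = 0.0107). Of these, Gamt was called in each of the 6 fits without a library and Ckmt2 was not (adjusted p up to 0.0667, for Ckmt2 without mKO unloading replicate 1). Among rises, Gpt2, mitochondrial alanine aminotransferase, changed by 1.08 ± 0.13 log2 (SE, adjusted p = 0.000163), the glutamine carrier Slc38a2 by 0.82 ± 0.19 log2 (SE, adjusted p = 0.0126), and Lpin1, a phosphatidate phosphatase and coactivator, by 0.77 ± 0.21 log2 (SE, adjusted p = 0.0351). Of these, Gpt2 was called in each of the 6 fits without a library and Slc38a2 and Lpin1 were not (adjusted p up to 0.14, for Lpin1 without mKO control replicate 1). Ifrd1, a transcriptional regulator of muscle differentiation, changed by 1.06 ± 0.27 log2 (SE, adjusted p = 0.0246), Aldh1a1, a retinaldehyde dehydrogenase, by 0.79 ± 0.14 log2 (SE, adjusted p = 0.00324) and Nrep, a small protein of regenerating nerve, by -1.34 ± 0.22 log2 (SE, adjusted p = 0.00183). Of these, Aldh1a1 and Nrep were called in each of the 6 fits without a library and Ifrd1 was not (adjusted p up to 0.158, for Ifrd1 without mKO unloading replicate 1).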
